A study of Mus musculus with 28 samples.

Results

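The 4 genes described here encode the formyl peptide receptors Fpr1 and Fpr2 and the C5a receptors C5ar1 and C5ar2, and all 4 were found by symbol among 24995 genes in 28 RNA-seq libraries of mouse dendritic cells. The cells were grown from C57BL/6 bone marrow in GM-CSF (20 ng/mL) plus IL-4 (10 ng/mL). Their donors were IFNARko;RelBko mice (double knockout), RelBko mice, IFNARko mice or wild-type (WT) mice. RelB belongs to the NF-kB family of transcription factors, and type I interferons signal through IFNAR. Each genotype gave 1 control library, 3 libraries at 1, 3 and 8 h of CpG (0.1 µM ODN 1668, DNA sensed by TLR9) and 3 libraries at 1, 3 and 8 h of high molecular weight Poly(I:C), a mimic of double-stranded RNA. The Poly(I:C) dose is given as 10 ng/mL in one label and 10 µg/mL in another, so it is uncertain. Controls are labelled 1 h, and later times were set against them. For changes from control at 3 and 8 h, stimulus and time in culture therefore cannot be told apart.

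Each combination of genotype, stimulus and time had 1 library, so no group had replicates. Tests below take the genotypes, or the times and stimuli, as repeats. Levels are CPM (reads scaled to the library total), and changes are differences in log2(CPM + 1) with the standard error (SE) of a limma fit over all genes, which understates the change of low genes. A gene was called at a Benjamini-Hochberg adjusted p under 0.05. Depth ran from 3269933 to 42227938 reads. The knockout labels were checked on the targeted genes, whose transcripts were still detected: Relb stood at 0.613 to 0.851 of the IFNARko level in the double knockout and at 0.675 to 0.998 of the WT level in RelBko. Ifnar1 stood at 0.463 to 0.802 of the RelBko level in the double knockout and at 0.478 to 0.772 of the WT level in IFNARko. The dendritic cell markers Itgax and H2-Aa were present in every library, at 588 CPM or more for Itgax and 1225 CPM or more for H2-Aa. Xist, transcribed from the inactive X chromosome of female cells, stood at 713 to 1042 CPM in the double knockout, 0 to 0.879 in RelBko, 0 to 0.589 in IFNARko and 445 to 832 in WT. Each comparison below that changes 1 allele therefore also sets Xist-expressing against Xist-lacking cells, and the allele cannot be told apart from the sex of the donors. In bulk RNA, fewer cells of a type and less RNA per cell cannot be told apart.

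Formyl peptide receptors are G protein-coupled receptors that guide phagocytes towards bacteria and damaged mitochondria. Fpr1 is the high-affinity receptor for N-formylated peptides, whereas Fpr2 also binds host ligands such as annexin A1, serum amyloid A and cathelicidin. C5a, a fragment released when complement component C5 is cleaved, acts through C5ar1, which signals through Gi proteins, and binds C5ar2, which does not couple to G proteins and recruits arrestins.

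Fpr1 and Fpr2 are neighbours on chromosome 17 of GRCm38 (GENCODE M21). Fpr1 spans 17876471 to 17883940 on the minus strand, Fpr2 spans 17887824 to 17893952 on the plus strand, and their starts lie 3884 bases apart and point away from each other. C5ar1 (16246743 to 16259540) and C5ar2 (16234585 to 16244154) are neighbours on the minus strand of chromosome 7, with starts 15386 bases apart. Both lie 3.35 to 3.36 Mb from Relb. Genes this close to a targeted allele can carry flanking DNA of another origin, so an effect of RelB loss and an effect of the flank cannot be told apart for this pair.

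The RefSeq promoter windows (GRCm38.p6, 250 bases before to 50 bases after the start) are shown because the members of each pair lie side by side and were compared in every condition. Capitals mark matches, on either strand, to 5 patterns: an NF-kB pattern (GGG and CC with 5 free bases between them), an interferon-stimulated response element (GAAA at both ends with 2 free bases between), a STAT pattern (TTCNNNGAA), an AP-1 pattern (TGANTCA) and a PU.1 pattern (AGGAAGT). The windows are Fpr1 at chr17:17883890-17884189 (minus strand), Fpr2 at chr17:17887574-17887873 (plus strand), C5ar1 at chr7:16259289-16259588 (minus strand) and C5ar2 at chr7:16244105-16244404 (minus strand).
Fpr1: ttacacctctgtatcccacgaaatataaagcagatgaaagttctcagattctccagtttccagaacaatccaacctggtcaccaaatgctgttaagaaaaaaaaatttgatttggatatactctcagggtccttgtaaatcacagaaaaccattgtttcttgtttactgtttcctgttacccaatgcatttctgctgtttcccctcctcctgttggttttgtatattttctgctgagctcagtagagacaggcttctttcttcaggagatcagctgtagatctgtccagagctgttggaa
Fpr2: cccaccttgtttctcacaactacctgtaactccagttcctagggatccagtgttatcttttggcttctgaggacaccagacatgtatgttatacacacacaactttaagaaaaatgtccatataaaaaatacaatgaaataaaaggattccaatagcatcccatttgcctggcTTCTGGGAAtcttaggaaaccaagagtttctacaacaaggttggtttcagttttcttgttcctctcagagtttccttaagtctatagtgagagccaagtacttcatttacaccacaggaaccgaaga
C5ar1: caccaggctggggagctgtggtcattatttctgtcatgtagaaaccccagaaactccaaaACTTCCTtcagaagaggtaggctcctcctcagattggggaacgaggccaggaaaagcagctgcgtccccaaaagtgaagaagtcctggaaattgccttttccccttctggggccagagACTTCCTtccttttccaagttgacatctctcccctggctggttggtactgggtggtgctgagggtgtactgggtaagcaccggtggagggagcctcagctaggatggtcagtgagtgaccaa
C5ar2: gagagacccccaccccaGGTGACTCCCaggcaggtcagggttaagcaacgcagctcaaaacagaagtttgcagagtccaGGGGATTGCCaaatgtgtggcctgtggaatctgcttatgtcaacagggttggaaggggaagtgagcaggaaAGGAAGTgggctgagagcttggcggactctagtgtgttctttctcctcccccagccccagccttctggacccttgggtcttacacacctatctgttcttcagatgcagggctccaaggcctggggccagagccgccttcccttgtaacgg

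The Fpr1 window held none of the 5 patterns. The Fpr2 window held 1 STAT match, at -76 from the start, and 8.30% of 32851 RefSeq promoters of this length hold one. C5ar1 held 2 PU.1 matches, at -189 and -71, and 9.35% of promoters hold at least 1. C5ar2 held 2 NF-kB matches, at -232 and -170, and 1 PU.1 match at -99. The NF-kB pattern is in 50.8% of promoters, the interferon-stimulated response element in 3.44% and the AP-1 pattern in 7.81%. A second C5ar2 window in the same set (chr7:16242282-16242581, minus strand) held none. No matches overlapped. Such matches describe letters and do not show binding.

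Reads of 50 bases can be assigned to Fpr1 and C5ar1 almost without ambiguity. Of the 50-base stretches in annotated transcripts, 0.0784% of those of Fpr1 and 0% of those of C5ar1 occur in another gene. Fpr2 shares 31.5% with Fpr1, Fpr3 and Gm5966, and the annotated Fpr3 gene overlaps it on the same strand, so the Fpr2 counts are uncertain where reads could be split or dropped. Fpr3 itself did not exceed 0.0237 CPM in any library. The further receptors Fpr-rs3, Fpr-rs4, Fpr-rs6 and Fpr-rs7 were not found by symbol among the genes used here. C5ar2 shares 4.39%.

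Fpr1 was the receptor with the widest range, from 0.40 to 179 CPM, and its level climbed after both stimuli in all 4 genotypes. In double knockout cells it stood at 0.40 CPM in the control, at 0.829, 9.18 and 32.8 CPM at 1, 3 and 8 h of CpG, and at 0.721, 1.69 and 6.13 CPM at 1, 3 and 8 h of Poly(I:C). In RelBko cells it stood at 8.72 CPM in the control, at 8.97, 76.5 and 142 CPM over the CpG times, and at 6.66, 27.9 and 32.2 CPM over the Poly(I:C) times. The double knockout was the lowest genotype at all 7 conditions, and RelBko was the highest or next to WT. In IFNARko cells the values were 3.15 CPM in the control, 2.61, 25.3 and 56.6 CPM with CpG, and 4.36, 7.44 and 14.9 CPM with Poly(I:C). In WT cells they were 3.87 CPM in the control, 5.07, 73.6 and 179 CPM with CpG, and 4.72, 24.6 and 34.2 CPM with Poly(I:C). IFNARko lay below WT at 7 of 7 conditions and above the double knockout at 7 of 7. The lowest value rested on 4 reads, with a 95% exact Poisson interval of 0.109 to 1.03 CPM, and such intervals cover counting error only.

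Fpr2 followed the same time course over a narrower range, from 1.76 to 126 CPM. In double knockout cells it stood at 1.90 CPM in the control, at 1.76, 16.9 and 50.9 CPM at 1, 3 and 8 h of CpG, and at 2.52, 4.49 and 9.96 CPM at 1, 3 and 8 h of Poly(I:C). In RelBko cells it stood at 7.59 CPM in the control, at 8.97, 53.3 and 93.8 CPM with CpG, and at 7.54, 21.0 and 30.9 CPM with Poly(I:C). The double knockout was again the lowest genotype at 7 of 7 conditions. In IFNARko cells the values were 2.90 CPM in the control, 6.59, 26.9 and 63.6 CPM with CpG, and 5.19, 10.0 and 19.5 CPM with Poly(I:C). In WT cells they were 4.30 CPM in the control, 4.82, 50.7 and 126 CPM with CpG, and 4.88, 23.1 and 37.0 CPM with Poly(I:C). IFNARko lay below WT at 5 of 7 conditions and above it at 1 h of both stimuli, where the counting intervals of the 2 genotypes overlapped.

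C5ar1 moved over a smaller range, from 3.21 to 65.5 CPM, and was ordered by genotype already in the control cells. In double knockout cells it stood at 3.9 CPM in the control, at 3.21, 5.29 and 10.7 CPM at 1, 3 and 8 h of CpG, and at 3.25, 5.48 and 12.8 CPM at 1, 3 and 8 h of Poly(I:C). In RelBko cells it stood at 13.6 CPM in the control, at 14.9, 21.5 and 13.8 CPM with CpG, and at 11.7, 17.8 and 33.0 CPM with Poly(I:C). In IFNARko cells the values were 3.47 CPM in the control, 3.98, 9.13 and 15.0 CPM with CpG, and 3.65, 7.10 and 20.6 CPM with Poly(I:C). WT was the highest genotype at 7 of 7 conditions, with 28.4 CPM in the control, 33.2, 51.8 and 39.3 CPM with CpG, and 23.4, 40.7 and 65.5 CPM with Poly(I:C). The double knockout and IFNARko were neighbours at the low end of the order at 6 of 7 conditions, and at 5 of those 6 their counting intervals overlapped.

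C5ar2, the receptor that does not couple to G proteins, was the scarcest of the 4 and rested on few reads outside WT. In double knockout cells it stood at 0.40 CPM in the control, at 0.725, 0.529 and 0.262 CPM at 1, 3 and 8 h of CpG, and at 0.361, 1.40 and 0.657 CPM at 1, 3 and 8 h of Poly(I:C). In RelBko cells it stood at 1.27 CPM in the control, at 1.28, 1.07 and 0 CPM with CpG, and at 1.76, 1.08 and 1.24 CPM with Poly(I:C). In IFNARko cells the values were 1.35 CPM in the control, 0.823, 0 and 0 CPM with CpG, and 1.53, 1.86 and 1.94 CPM with Poly(I:C). Of the 3 values of 0, that of RelBko at 8 h had an exact Poisson 95% upper bound of 0.553 CPM, and those of IFNARko had bounds of 0.426 CPM at 3 h and 1.13 CPM at 8 h. A floor of 3 reads stands at 0.449, 0.347 and 0.917 CPM in the same libraries. In WT cells it stood at 6.17 CPM in the control, at 4.82, 1.46 and 0.710 CPM with CpG, and at 5.35, 3.11 and 1.82 CPM with Poly(I:C). WT was the highest genotype at 6 of 7 conditions, and beyond 1 h of either stimulus every pair of neighbours in the genotype order had overlapping counting intervals.

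**Figure D1:**
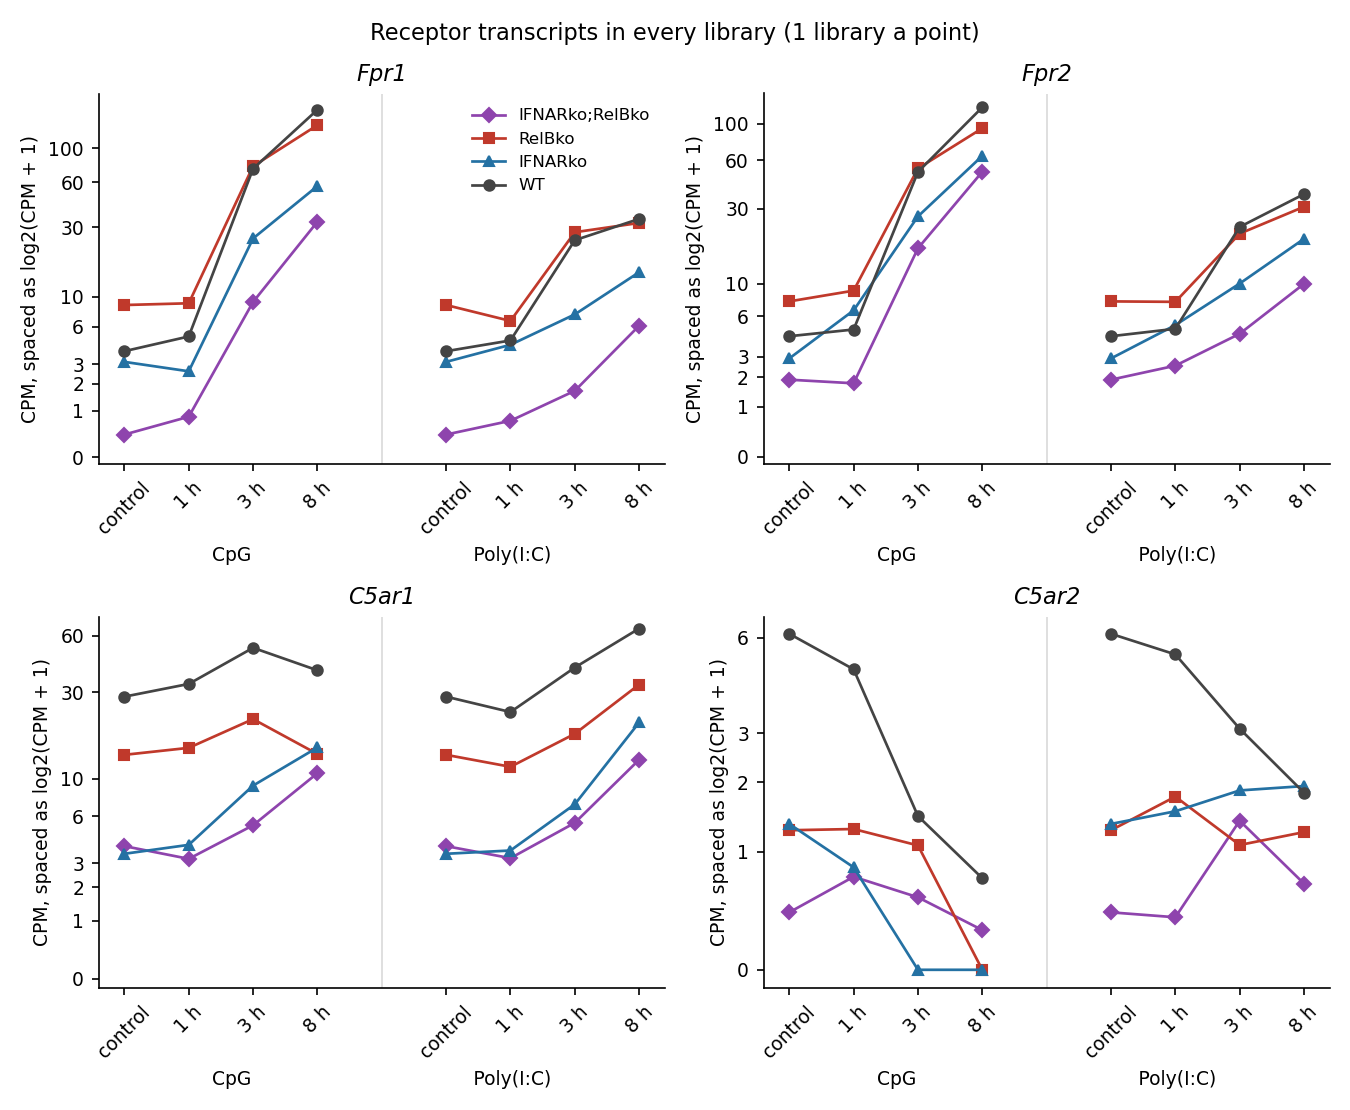
Level of each receptor in the 28 libraries, as CPM spaced on the log2(CPM + 1) scale, by time after CpG and Poly(I:C) with the shared control of each genotype at the left of both series; 1 point is 1 library. Fpr1 and Fpr2 climb between 1 and 8 h in all 4 genotypes with the double knockout lowest, WT C5ar1 lies above the other 3 genotypes, and WT C5ar2 declines after both stimuli.

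Levels of different receptors were compared per kilobase of merged exon. In WT control cells C5ar1 was the most abundant of the 4 at 11.0 CPM per kb, followed by Fpr2 at 3.32, Fpr1 at 2.92 and C5ar2 at 1.73 CPM per kb. After 8 h of CpG in WT cells Fpr1 stood first at 135 CPM per kb, ahead of Fpr2 at 97.0, C5ar1 at 15.3 and C5ar2 at 0.199 CPM per kb. After 8 h of Poly(I:C) in WT cells Fpr2, Fpr1 and C5ar1 stood close together at 28.6, 25.8 and 25.5 CPM per kb. Fpr2 shares 31.5% of its 50-base stretches with other genes, against 0.0784% for Fpr1. If shared reads were dropped, its level per kb is too low, so the order of Fpr1 and Fpr2 is uncertain in all these cells. C3ar1, the receptor for C3a and the remaining anaphylatoxin receptor, ran from 9.31 to 42.0 CPM per kb over the 28 libraries.

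Both formyl peptide receptors and C5ar1 rose after CpG, and C5ar2 fell. At 3 h, 4 of 4 receptors were called, in a fit that called 44.2% of genes. Fpr1 rose by 3.11 ± 0.20 (log2, SE, 16 libraries, limma adjusted p = 3.4e-08) and Fpr2 by 2.85 ± 0.20 (adjusted p = 7.5e-08). C5ar1 rose by 0.75 ± 0.27 (adjusted p = 0.037), and C5ar2 fell by 0.69 ± 0.26 (adjusted p = 0.039). At 8 h, 4 of 4 were again called against 54.1% of genes, with Fpr1 up by 4.37 ± 0.20 (adjusted p = 5e-10), Fpr2 by 4.06 ± 0.20 (adjusted p = 1.1e-09) and C5ar1 by 0.89 ± 0.27 (adjusted p = 0.013). C5ar2 fell by 1.16 ± 0.26 at 8 h (adjusted p = 0.0013). The median gene changed by -0.15 at 3 h and -0.17 at 8 h. At 1 h limma called 0 of 4 receptors against 0.508% of genes, 0 had an unadjusted p under 0.05, and voom called 0.

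The 2 C5a receptor results after CpG were less stable than those of the formyl peptide receptors. The 8 h rise of C5ar1 was 0.21 (limma adjusted p = 0.29) without the 2 shallowest libraries (the double knockout and IFNARko at 8 h of CpG), 0.77 (adjusted p = 0.066) without the double knockout and 0.58 (adjusted p = 0.090) without IFNARko, and its 3 h call was lost without the double knockout (adjusted p = 0.051), IFNARko (0.092) or WT (0.10). The 3 h call of C5ar2 was lost under median-ratio scaling (adjusted p = 0.067), TMM scaling (0.063), plain eBayes (0.051) and no filter (0.071), and without IFNARko (0.22) or WT (0.26).

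Fpr1, Fpr2 and C5ar1 rose after Poly(I:C). At 3 h, 3 of 4 receptors were called against 23.6% of genes, and at 8 h 3 of 4 against 43% of genes. Fpr1 rose by 1.48 ± 0.24 at 3 h (limma adjusted p = 0.00081) and by 2.23 ± 0.24 at 8 h (adjusted p = 1e-05). Fpr2 rose by 1.49 ± 0.19 at 3 h (adjusted p = 1e-04) and by 2.26 ± 0.19 at 8 h (adjusted p = 4.9e-07). C5ar1 rose by 0.53 ± 0.14 at 3 h (adjusted p = 0.011) and by 1.54 ± 0.14 at 8 h (adjusted p = 4.4e-07), and its 3 h call was lost without RelBko (adjusted p = 0.051). C5ar2 differed from control by 0.03 ± 0.25 at 3 h and -0.20 ± 0.25 at 8 h, with a 95% interval of -0.73 to 0.33 at 8 h. At 1 h limma called 0 of 4 against 0.331% of genes, 0 had an unadjusted p under 0.05, and voom called 0. The CpG and Poly(I:C) changes share the 4 control libraries and are not independent.

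**Figure D2:**
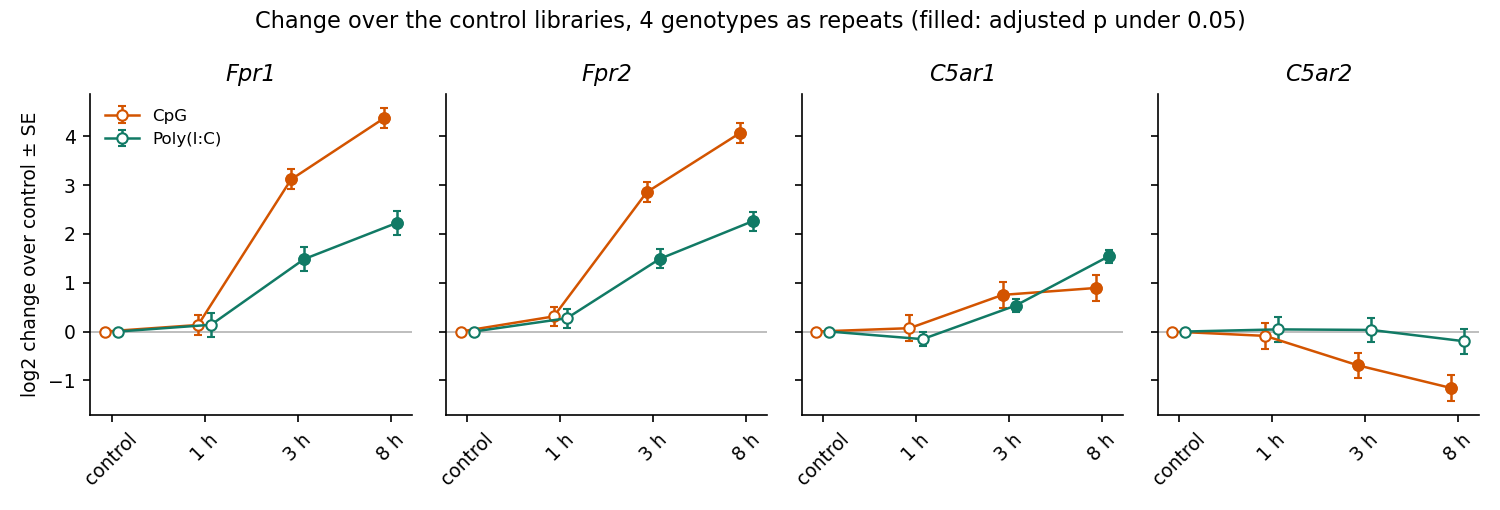
Change of each receptor over the control libraries (difference in log2(CPM + 1) ± SE) by time after CpG or Poly(I:C), with the 4 genotypes as repeats; filled points passed an adjusted p of 0.05. Both formyl peptide receptors reach above 4 at 8 h of CpG and above 2 at 8 h of Poly(I:C), and C5ar2 falls after CpG.

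The 2 stimuli were also set against each other directly, without the controls. Over the 4 genotypes Fpr1 was higher with CpG than with Poly(I:C) by 1.63 ± 0.23 at 3 h (limma adjusted p = 1.5e-05) and by 2.14 ± 0.23 at 8 h (adjusted p = 1.1e-06). Fpr2 was higher with CpG by 1.36 ± 0.21 at 3 h (adjusted p = 3.7e-05) and by 1.80 ± 0.21 at 8 h (adjusted p = 2.6e-06). The C5a receptors went the other way at 8 h: C5ar1 was lower with CpG by 0.65 ± 0.22 (difference -0.65, adjusted p = 0.028) and C5ar2 by 0.96 ± 0.26 (difference -0.96, adjusted p = 0.0076). At 3 h the C5ar1 difference was 0.22 ± 0.22 (adjusted p = 0.44) and that of C5ar2 was -0.73 ± 0.26 (adjusted p = 0.030). This made 3 of 4 receptors called at 3 h against 39.8% of genes and 4 of 4 at 8 h against 30.9%. The C5ar1 call at 8 h was lost under median-ratio scaling (adjusted p = 0.061) and TMM scaling (adjusted p = 0.064) and without WT or RelBko (adjusted p = 0.087 and 0.16). The C5ar2 call at 3 h was lost under both scalings (adjusted p = 0.065 and 0.064), with no filter (0.054), without WT (0.056) and without IFNARko (0.23), and its call at 8 h without RelBko (0.069) and without IFNARko (0.066). The kind of ligand and its dose cannot be told apart.

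The C5a receptors were lower in RelBko than in WT cells, and the formyl peptide receptors did not pass the test. RelBko and WT cells were compared over the 6 stimulated conditions, in a fit that called 2 of 4 receptors and 26.2% of genes. C5ar1 was lower in RelBko by 1.14 ± 0.19 (difference -1.14, limma adjusted p = 0.00034) and stood at 0.351 to 0.504 of the WT level, lower at 7 of 7 conditions including the control. C5ar2 was lower by 0.82 ± 0.20 (difference -0.82, adjusted p = 0.0049), lower at 7 of 7 conditions. Fpr1 differed by 0.16 ± 0.19 (adjusted p = 0.59, 95% interval -0.25 to 0.57) and Fpr2 by 0.10 ± 0.18 (adjusted p = 0.74, 95% interval -0.29 to 0.48). RelBko Fpr1 was above WT at 5 of 7 conditions and below it at 8 h of both stimuli.

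Genes near Relb, C5ar1 and C5ar2 among them, were also counted, and the part of position in the receptor differences was not tested. Of 87 tested genes within 5 Mb of Relb, 46 (52.9%) differed between RelBko and WT, against 26.1% of 12221 other placed genes. C5ar1 and C5ar2 had the lowest but 3 and lowest but 5 differences of those 87. Between the double knockout and IFNARko, 52 of the 87 (59.8%) were called, against 47.9% of the other placed genes. There C5ar1 and C5ar2 ranked 18 and 25 from the lowest difference, and neither was called. For the comparisons across IFNAR, 48 of 87 (55.2%) were called between the double knockout and RelBko, against 55.0% elsewhere, and 49 of 87 (56.3%) between IFNARko and WT, against 51.8% elsewhere.

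**Figure D3:**
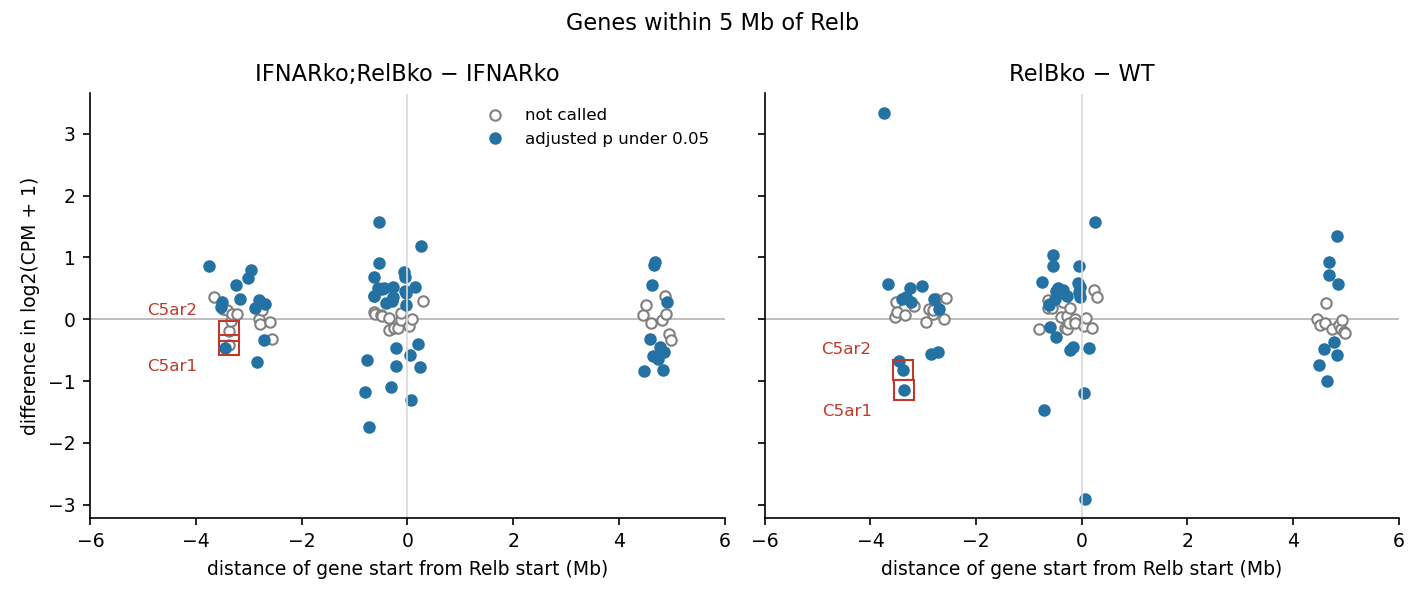
Differences in log2(CPM + 1) of the 87 tested genes within 5 Mb of Relb, against the distance of their start from that of Relb in Mb, for the double knockout minus IFNARko (left) and RelBko minus WT (right); filled points passed an adjusted p of 0.05 and squares mark C5ar1 and C5ar2. Called genes lie in both directions and on both sides of Relb, with C5ar1 at -1.14 and C5ar2 at -0.82 for RelBko minus WT.

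On the IFNAR-deficient background the formyl peptide receptors fell and the C5a receptors did not pass the test. The double knockout was compared with IFNARko, in a fit that called 2 of 4 receptors and 47.8% of genes. Fpr1 was lower in the double knockout by 1.26 ± 0.19 (difference -1.26, limma adjusted p = 5.7e-05), at 0.127 to 0.579 of the IFNARko level and lower at 7 of 7 conditions. Fpr2 was lower by 0.85 ± 0.18 (difference -0.85, adjusted p = 0.0011), at 0.267 to 0.799 of the IFNARko level and lower at 7 of 7. C5ar1 differed by -0.41 ± 0.19 (adjusted p = 0.088, 95% interval -0.82 to -0.0053) and was lower at 6 of 7 conditions. That difference passed under median-ratio scaling (-0.50, adjusted p = 0.030), TMM scaling (-0.49, adjusted p = 0.031), voom (-0.52, adjusted p = 0.032) and without the 2 shallowest libraries (-0.41, adjusted p = 0.0073). C5ar2 differed by -0.18 ± 0.20 (adjusted p = 0.47, 95% interval -0.60 to 0.23). Its stimulated level was only 0.262 to 1.40 CPM in the double knockout and 0 to 1.94 in IFNARko, where this scale understates a change.

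A direct test of the difference between these 2 RelB comparisons was added after values of these data were seen. It subtracts RelBko minus WT from the double knockout minus IFNARko, and it called 2 of 4 receptors and 22.3% of genes. The estimate was -1.42 ± 0.27 for Fpr1 (limma adjusted p = 0.0012) and -0.95 ± 0.26 for Fpr2 (adjusted p = 0.014), so for both genes the double knockout minus IFNARko lay below RelBko minus WT. This contrast equals the sum of the double knockout and WT less the sum of RelBko and IFNARko, which is also the cells with Xist (445 to 1042 CPM) less those without (0 to 0.879 CPM). Dependence of the RelB difference on IFNAR and a difference between donor sexes therefore cannot be told apart. The Fpr2 value without the 1 h CpG libraries was -0.63 (adjusted p = 0.074). For C5ar1 it was 0.73 ± 0.27 (adjusted p = 0.065) and for C5ar2 0.63 ± 0.28 (adjusted p = 0.12). The C5ar1 value passed under median-ratio scaling (adjusted p = 0.045), TMM scaling (0.036), voom (0.042) and without the 2 shallowest libraries (0.0019).

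All 4 receptors were lower in IFNARko than in WT cells. IFNARko was compared with WT, in a fit that called 4 of 4 receptors and 51.5% of genes, with a median gene at 0.14. C5ar1 fell most, by 2.15 ± 0.19 (difference -2.15, limma adjusted p = 1e-07), to 0.120 to 0.381 of the WT level at 7 of 7 conditions. Fpr1 fell by 1.12 ± 0.19 (adjusted p = 0.00014), to 0.302 to 0.924 of the WT level at 7 of 7, and C5ar2 fell by 0.92 ± 0.20 (adjusted p = 0.00068) and was lower at 6 of 7. Fpr2 fell by 0.57 ± 0.18 (adjusted p = 0.015), and its call was lost without CpG 3 h, CpG 8 h, Poly(I:C) 3 h or Poly(I:C) 8 h (adjusted p = 0.096, 0.069, 0.088 and 0.085). C3ar1, the related C3a receptor on chromosome 6, fell by 1.16 ± 0.08 in the same comparison (adjusted p = 4.1e-10). This comparison and that of RelBko with WT share the WT libraries.

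On the RelB-deficient background 3 of 4 receptors were lower without IFNAR, against 54.9% of genes called. Between the double knockout and RelBko, Fpr1 fell by 2.54 ± 0.19 (limma adjusted p = 2e-08), to 0.0459 to 0.230 of the RelBko level at 7 of 7 conditions. Fpr2 fell by 1.52 ± 0.18 (adjusted p = 3.5e-06), to 0.196 to 0.542 of the RelBko level at 7 of 7. C5ar1 fell by 1.42 ± 0.19 (adjusted p = 1.2e-05), to 0.215 to 0.780 of the RelBko level at 7 of 7, and C5ar2 differed by -0.29 ± 0.20 (adjusted p = 0.23, 95% interval -0.71 to 0.13). Stimulated C5ar2 was only at 0.262 to 1.40 CPM in the double knockout and 0 to 1.76 in RelBko, where this scale understates a change.

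**Figure D4:**
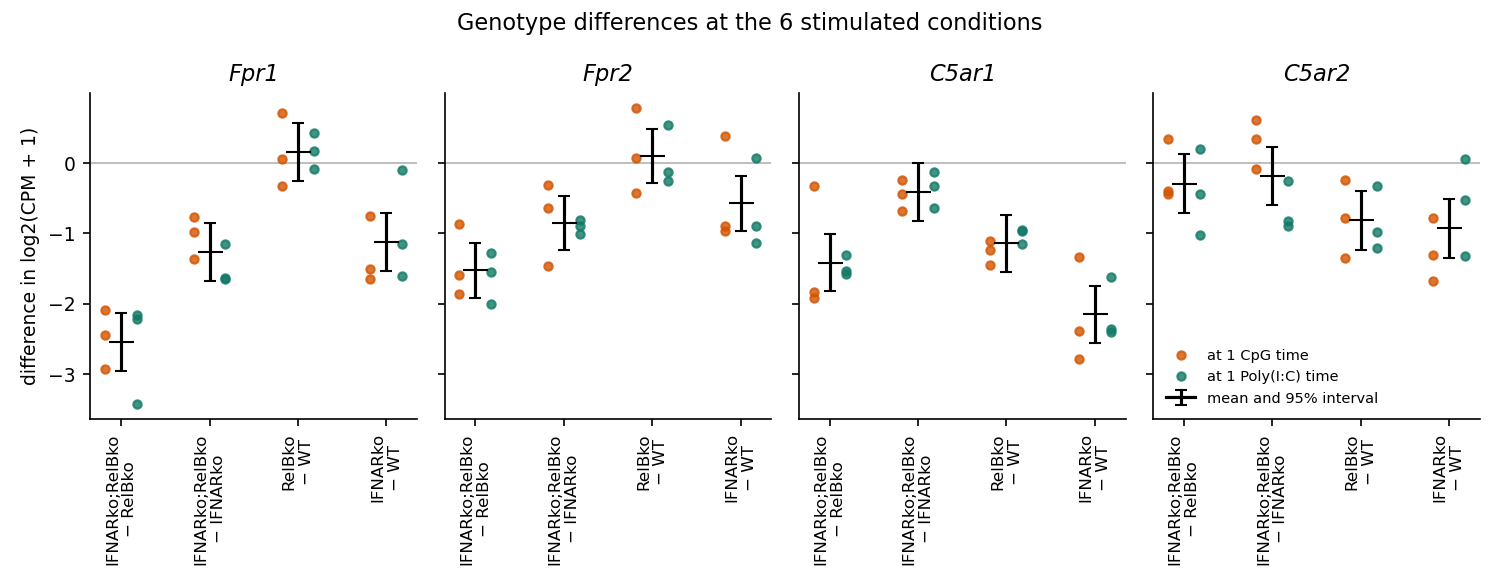
Genotype differences in log2(CPM + 1) for each receptor: coloured points are single conditions (1 library of each genotype), bars are the fitted mean over the 6 stimulated conditions with its 95% interval. The intervals of Fpr1 and Fpr2 lie below 0 in every comparison except RelBko minus WT, which spans 0. Those of C5ar1 lie below 0 in every comparison, but for the double knockout minus IFNARko the upper end is -0.0053 and the difference was not called. Those of C5ar2 lie below 0 for RelBko minus WT and IFNARko minus WT only.

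Marker lists also differed between the genotypes, in some cases in the direction opposite to the receptors, and their part in the receptor differences was not tested. The 11 monocyte and macrophage markers present, all above 1 CPM in at least 3 libraries, summed to 535 to 813 CPM in the double knockout, 800 to 1295 in RelBko, 465 to 792 in IFNARko and 1052 to 1470 in WT. Of these 11, 0 rose and 7 fell between the double knockout and RelBko, 3 rose and 4 fell between the double knockout and IFNARko, 1 rose and 5 fell between RelBko and WT, and 0 rose and 9 fell between IFNARko and WT. The shares of all genes called in those comparisons were 54.9%, 47.8%, 26.2% and 51.5%. Apoe, 1 of the 11, itself starts 0.070 Mb from Relb and stood at 1.32 to 3.19 CPM in the double knockout, 1.45 to 3.9 in RelBko, 3.98 to 9.37 in IFNARko and 16.8 to 29.7 in WT. The 12 neutrophil markers summed to 135 to 225 CPM in the double knockout, 221 to 353 in RelBko, 93.0 to 222 in IFNARko and 155 to 211 in WT, and 11 of them passed 1 CPM in at least 3 libraries. Single neutrophil markers went different ways: S100a8 stood at 3.63 to 6.29 CPM in the double knockout, 84.8 to 106 in RelBko, 29.7 to 62.6 in IFNARko and 31.3 to 52.1 in WT. Retnlg, another neutrophil marker, stood at 78.8 to 147 CPM in the double knockout, 6.14 to 15.5 in RelBko, 2.00 to 3.16 in IFNARko and 0.900 to 3.93 in WT. Ly6g, which defines neutrophils, was at 0 in at least 1 double knockout library and reached 2.59 CPM at most in any library. Of 10 dendritic cell markers, 2 rose and 7 fell between the double knockout and RelBko (median -0.24), 1 rose and 8 fell between the double knockout and IFNARko (median -0.47), 4 rose and 1 fell between RelBko and WT (median 0.14), and 7 rose and 0 fell between IFNARko and WT (median 0.34). Mast cell and basophil markers summed to 78.0 to 95 CPM in the double knockout, 7.55 to 24.2 in RelBko, 56.7 to 78.2 in IFNARko and 9.87 to 35.1 in WT.

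Whether the response itself, rather than the level, depended on genotype was tested in all 28 libraries as an interaction over 3 and 8 h. Limma called 0 of 4 receptors in each of the 4 interactions. For CpG the interaction with IFNAR called 1.9% of genes, and 0 receptors had an unadjusted p under 0.05. The CpG interaction with RelB called 0% of genes, and 1 receptor had an unadjusted p under 0.05 (C5ar2, 1.19 ± 0.34, adjusted p = 0.31). For Poly(I:C) the interaction with IFNAR called 1.16% of genes, with 1 receptor under an unadjusted 0.05 (C5ar2, 0.98 ± 0.34, adjusted p = 0.20), and that with RelB called 0.00771%, again with 1 (Fpr2, -0.71 ± 0.30, adjusted p = 0.92). Voom called 0 receptors in each. In the controls C5ar2 stood at 0.40 CPM in the double knockout, 1.27 in RelBko and 1.35 in IFNARko, against 6.17 in WT. It therefore had less room to fall in the knockouts on this scale, and the part of that in its interactions was not tested. The 95% intervals were wide: the change of Fpr1 after CpG could differ by -1.27 to 0.21 without IFNAR and by -1.06 to 0.42 without RelB.

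The ratio of Fpr1 to Fpr2 reads within a library ran from 0.211 to 0.644 in the double knockout (median 0.471), from 0.883 to 1.52 in RelBko (median 1.15), from 0.396 to 1.09 in IFNARko (median 0.841) and from 0.900 to 1.45 in WT (median 1.05). The double knockout and RelBko did not overlap, and neither did the double knockout and WT. The log2 ratio was lower in the double knockout than in RelBko by 1.48 (difference -1.48, SD 0.55, lower at 7 of 7 conditions), with p = 0.0156 in a two-sided exact permutation test over the 7 conditions, the smallest p that it can give. Against IFNARko the difference was -0.89 (SD 0.86, lower at 6 of 7, exact permutation p = 0.0312). IFNARko minus WT was -0.49 (SD 0.52, lower at 6 of 7, exact permutation p = 0.0625) and RelBko minus WT 0.10 (SD 0.19, exact permutation p = 0.234). Adjusted over these 4 comparisons the p-values were 0.0625, 0.0625, 0.0833 and 0.234, so none passed 0.05. The comparison was chosen after the values were seen, the double knockout control rests on 4 and 19 reads, and reads shared between Fpr2 and Fpr3 could affect the ratio.

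**Figure D5:**
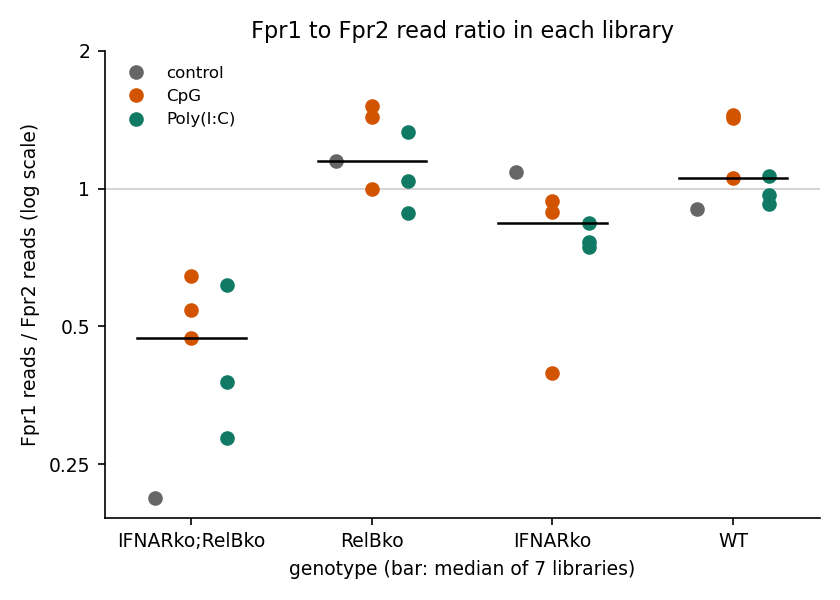
Fpr1 reads divided by Fpr2 reads in each of the 28 libraries, on a log axis, by genotype and treatment; bars are medians of 7 libraries. Double knockout libraries lie at 0.211 to 0.644, below all RelBko and WT libraries.

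Across the 28 libraries the level of Fpr1 was most like that of Fpr2 (Pearson r = 0.977 of log2(CPM + 1), among 9987 other genes). Next for Fpr1 came Prdx5 (0.941), which encodes a peroxiredoxin, Acsl1 (0.940), an acyl-CoA synthetase, Helz2 (0.936) and Tnfrsf1b (0.936), a TNF receptor. After Fpr1, the genes most like Fpr2 were Adam17 (0.961), the protease that releases TNF, Sod2 (0.952), mitochondrial superoxide dismutase, Slc16a10 (0.951), a transporter, and Tlr1 (0.943), a bacterial lipopeptide receptor. C5ar1 was most like Igf1 (0.944), Msr1 (0.937), a macrophage scavenger receptor, Adap2 (0.918), Bst1 (0.912) and Ftl1 (0.909), the ferritin light chain. Among the genes most like C5ar2 were Plxdc2 (0.873), Itgam (0.863), the alpha chain of complement receptor 3, Plod1 (0.862) and Dennd4c (0.860). C5ar1 and C5ar2 were less alike (r = 0.43) than Fpr1 and Fpr2. These libraries share genotypes and time courses, so the values describe them and carry no test.

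Other complement genes were measured beside the C5a receptors. Of 20 listed, 18 were tested after CpG. By 8 h of CpG 4 had risen and 6 fallen of 18, close to the 54.1% of all genes called, with a list median of -0.06 against -0.17 for all genes. C3, the central complement component, rose by 0.46 ± 0.06 (limma adjusted p = 1.9e-05), whereas Cfp, encoding properdin, fell by 0.88 ± 0.10 (adjusted p = 2.3e-06) and Cpm, a carboxypeptidase that trims C-terminal basic residues, fell by 1.04 ± 0.17 (adjusted p = 8.9e-05). At 8 h of Poly(I:C) 3 rose and 3 fell of 17 tested, where 43% of all genes were called, with a median of 0.10 against -0.03 for all genes, and C3ar1 rose by 0.78 ± 0.09 (adjusted p = 6.4e-06). Between RelBko and WT 1 of 18 rose and 10 fell, where 26.2% of all genes were called, with a median of -0.24 against 0.08 for all genes, among them C1qa, a chain of C1q (-0.84 ± 0.16, adjusted p = 0.00064), and Itgam (-0.42 ± 0.08, adjusted p = 0.00064). Between the double knockout and IFNARko 6 rose and 7 fell, against 47.8% of all genes called, with Serping1, the C1 inhibitor, up by 2.43 ± 0.14 (adjusted p = 1.4e-11) and C4b down (-1.59 ± 0.13, adjusted p = 4.8e-09). Between IFNARko and WT 3 rose and 6 fell, close to the 51.5% of all genes called, and between the double knockout and RelBko 6 rose and 9 fell, against 54.9%. Hc, which encodes C5 itself, stayed at 3.15 CPM or below in every library, and is named with its values known.

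Of 10 listed genes for ligands or for their producers or degraders, 6 were tested. Among these 2 rose and 1 fell at 8 h of CpG, where 54.1% of all genes were called, with a median of 0.18 against -0.17 for all genes. Saa3, an acute-phase serum amyloid A, rose by 3.14 ± 0.24 at 3 h (limma adjusted p = 1.7e-07) and by 4.99 ± 0.24 at 8 h of CpG (adjusted p = 8.4e-10), reaching 41.2 CPM in the double knockout, 132 in RelBko, 47.4 in IFNARko and 134 in WT. At 8 h of Poly(I:C) 2 rose and 2 fell, against 43% of all genes called, with a median of 0.05 against -0.03 for all genes, and Saa3 rose by 1.24 ± 0.24 (adjusted p = 0.00068). Anxa1, encoding annexin A1, fell in all 4 genotype comparisons: by 0.75 ± 0.08 in the double knockout against RelBko (adjusted p = 5.2e-07), by 0.50 ± 0.08 against IFNARko (adjusted p = 6.8e-05), by 0.29 ± 0.08 in RelBko against WT (adjusted p = 0.015) and by 0.54 ± 0.08 in IFNARko against WT (adjusted p = 2.5e-05). S100a8 and S100a9, which are also on the neutrophil list, rose in RelBko against WT (1.2 ± 0.16 and 1.56 ± 0.16, adjusted p = 6.1e-05 and 2.4e-06) and fell in the double knockout against IFNARko (-2.99 ± 0.16 and -3.75 ± 0.16, adjusted p = 6.3e-10 and 1.8e-11). In those comparisons the 6 tested genes of this list, which include S100a8 and S100a9, had medians of 0.51 and -0.60, against 0.08 and 0.11 for all genes.

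Of 29 genes for receptor signalling and desensitisation, all tested, 11 rose and 11 fell at 8 h of CpG, against 54.1% of all genes called, with a median of -0.06 against -0.17 for all genes. Cybb, the catalytic subunit of the phagocyte NADPH oxidase that formyl peptides trigger, rose by 2.59 ± 0.10 (limma adjusted p = 2.3e-11). Pik3r5, the regulatory subunit of the Gβγ-activated PI3-kinase, rose by 0.69 ± 0.07 (adjusted p = 2.9e-07). At 1 h of CpG the single called member was Rgs1, which speeds the switch-off of G proteins (1.58 ± 0.20, adjusted p = 0.0039). At 8 h of Poly(I:C) 11 rose and 6 fell, against 43% of all genes called, with a median of 0.02 against -0.03 for all genes, and Arrb2, encoding beta-arrestin 2, rose by 0.58 ± 0.06 (adjusted p = 2.8e-06). Between RelBko and WT 10 rose and 2 fell, against 26.2% of all genes called, led by Adrbk2, a receptor kinase (1.04 ± 0.05, adjusted p = 1.2e-12). Between IFNARko and WT 14 rose and 4 fell, against 51.5% of all genes called, and Rgs16 was up by 2.48 ± 0.15 (adjusted p = 3.3e-11). Between the double knockout and IFNARko 7 rose and 6 fell, close to the 47.8% of all genes called, with Rgs16 at -2.69 ± 0.15 (adjusted p = 8.7e-12). Against RelBko, 9 rose and 7 fell in the double knockout, close to the 54.9% of all genes called.

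Among 19 other chemoattractant receptors, 15 were tested with CpG, and at 8 h 6 rose and 6 fell, against 54.1% of all genes called, with a median of 0.16 against -0.17 for all genes. Gpr84, a receptor for medium-chain fatty acids, rose by 2.46 ± 0.10 (limma adjusted p = 2.3e-11) and was also called at 1 h (0.54 ± 0.10, adjusted p = 0.016). Cmklr1, the chemerin receptor, rose by 1.53 ± 0.10 (adjusted p = 2.5e-09), and Ccr7, which guides dendritic cells to lymph nodes, by 0.84 ± 0.08 (adjusted p = 3.7e-07). A pair of members known from neutrophils fell: Cxcr2, a receptor for CXC chemokines, by 1.84 ± 0.18 (adjusted p = 3.5e-07), and Ltb4r1, the leukotriene B4 receptor, by 2.10 ± 0.31 (adjusted p = 0.00026). At 8 h of Poly(I:C) 7 rose and 2 fell of 14 tested, against 43% of all genes called, with a median of 0.49 against -0.03 for all genes. Between the double knockout and IFNARko 3 rose and 5 fell of 15, near the 47.8% of all genes called, with a median of -0.11 against 0.11, and the eosinophil and basophil receptor Ccr3 was up by 3.74 ± 0.13 (adjusted p = 9.2e-15). Between RelBko and WT 5 rose and 4 fell, against 26.2% of all genes called, with a median of -0.03 against 0.08. Between IFNARko and WT 4 rose and 6 fell, against 51.5%, with a median of -0.10 against 0.14. Against RelBko, 5 rose and 6 fell in the double knockout, beside 54.9% of all genes, with a median of -0.25 against 0.16. C3ar1 is counted in this list and in the complement list.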

How the data were processed

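Libraries were stranded mRNA libraries read from one end, per the labels' protocols. Before they deposited the values, the authors normalized each library's counts to a signal equal to CPM + 1, a scale found from the values themselves; there is 1 table per stimulus, with the controls in both. Cutadapt, edgeR and the build mm10 are named in the submitters' processing notes; neither aligner, counter nor annotation is given in the sources used here. In all, the CpG table had 27178 entries, of which 2161 name no gene and held 0.0733 to 0.116% of a library. The Poly(I:C) table had 25019 entries, 2 of them unnamed. After 11 duplicated symbols were left out, 24995 genes in both tables were used.

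CPM was the value minus 1. Genes with at least 1 CPM in at least 3 libraries were fitted on log2(CPM + 1) with limma 3.58.1 (R 4.3.3, statmod 1.5.0; trend and robust eBayes; two-sided; Benjamini-Hochberg over all genes fitted). Responses used 16 libraries with genotype as a block. Genotype and stimulus comparisons used the 24 stimulated libraries with the 6 conditions or 4 genotypes as repeats. Interactions used all 28. Alternatives were median-ratio and TMM scaling, a pseudocount of 0.25, no filter, plain eBayes, voom, and leaving out libraries. A count model on recovered reads was not run. The fits were tested on simulated reads in which 200 genes were changed, all with a mean level above that of C5ar2. Every simulated gene had the same spread between libraries, so how the fits perform on the receptors themselves was not tested. Nothing in the labels says that libraries came from separate cultures, so p-values measure only the spread between these samples. Members and lists were chosen with earlier results of these data known. From each list at most 4 genes with the lowest adjusted p in a comparison are named, plus C3ar1, Anxa1, Ccr7 and Ltb4r1 in any; single markers, Xist and Hc were chosen after their values were seen. Some genes that this rule names are not reported here. Tables and figures used Python 3.11.15, numpy 2.4.6, pandas 2.3.3 and matplotlib 3.10.9.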

Additional observations from a re-analysis of the deposited data

Results flagged for a closer look

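In the added comparison the 2 RelB differences of Fpr1 were not alike: the double knockout minus IFNARko, less RelBko minus WT, was -1.418 on the log2 scale (limma adjusted p = 0.0012). The same value for Fpr2 was -0.9515 (adjusted p = 0.014). The same contrast sets the 2 genotypes with Xist against the 2 without, so dependence on IFNAR and donor sex cannot be told apart.

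For 3 further results the changes had one sign in the IFNAR-deficient genotypes and the other sign in the IFNAR-sufficient genotypes. The differences at these single times were not tested. The change of C5ar1 between 3 and 8 h of CpG was 0.900 in the double knockout, -0.603 in RelBko, 0.659 in IFNARko and -0.389 in WT. The mean of the IFNAR-deficient genotypes lay 1.27561 above that of the others. Both rises end in the 2 shallowest libraries, with 41 C5ar1 reads in the double knockout and 49 in IFNARko. The counting intervals at 3 and 8 h overlapped in IFNARko (7.23 to 11.4 and 11.1 to 19.8 CPM) and not in the other genotypes. The change of C5ar2 from control to 3 h of Poly(I:C) was 0.774 in the double knockout, -0.125 in RelBko, 0.283 in IFNARko and -0.802 in WT, a gap of 0.992366. At 8 h of Poly(I:C) it was 0.243 in the double knockout, -0.0157 in RelBko, 0.320 in IFNARko and -1.344 in WT, a gap of 0.961134. RelBko hardly moved there, from 1.27 CPM in the control to 1.24 CPM, and WT moved most. Over 3 and 8 h together, the tested IFNAR interaction of C5ar2 with Poly(I:C) was 0.98 ± 0.34 (limma adjusted p = 0.20) and was not called. C5ar2 rested on 4 to 43 reads in these libraries.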

How the results depend on the processing

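Over 788 member settings, 726 kept direction and side of the threshold, 29 lost a call, 10 gained one and 23 changed sign; the cause was not tested. All sign changes were of values that missed the threshold. With voom, Fpr1 was -0.03414 at 1 h of Poly(I:C), C5ar2 -0.07023 at 3 h of Poly(I:C), Fpr1 -0.008546 and Fpr2 -0.12 for RelBko minus WT, and Fpr2 0.1357 and C5ar2 -0.05568 for the IFNAR interaction with CpG. With a pseudocount of 0.25 that interaction was 0.09776 for Fpr2, and the RelB interaction with CpG was 0.007859 for Fpr1. Leaving out 1 genotype, the change of C5ar2 ran from -0.2189 to 0.003662 at 1 h of CpG and, with Poly(I:C), from -0.03638 to 0.1165 at 1 h, -0.2146 to 0.311 at 3 h and -0.3723 to 0.1824 at 8 h. The IFNAR interaction with CpG ran from -1.345 to 0.2881 for Fpr1 and -0.4862 to 0.3324 for Fpr2. The RelB interaction of Fpr1 ran from -1.135 to 0.4984 with CpG and -0.9536 to 0.1671 with Poly(I:C). Leaving out 1 condition, Fpr2 for RelBko minus WT ran from -0.06196 to 0.2371. Receptors called ran from 2 to 4 at 3 h of CpG, from 1 to 3 for the difference between the RelB comparisons, and from 2 to 4 between the stimuli at 8 h. Median-ratio scaling shifted the all-gene median by 0.163 at 8 h of CpG and by -0.175 between the double knockout and RelBko. Depth limits C5ar2, which had 0 to 43 reads per library. The edgeR quasi-likelihood alternative was not run.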
